A study of Arabidopsis thaliana with 6 samples.

Results

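COR47, LTI30 and COR15B are cold-regulated genes of Arabidopsis thaliana, and their transcripts were measured in whole plants of the octopus mutant, of a line overexpressing OCTOPUS and of wild type. The 3 genes were taken by name from the platform annotation, and were chosen with earlier results of these data known. Each was read by 1 probe set of the Affymetrix ATH1 array, so that 3 of the 22746 probe sets other than controls are described. COR47 (AT1G20440) was read by 259570_at, LTI30 (AT3G50970, also called XERO2) by 252102_at and COR15B (AT2G42530) by 263495_at.

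The 6 arrays came from 2 samples of the Octopus mutant DYG25, 2 of the Octopus overexpressor 35SDYG25 and 2 of wild type, WS. The label of 1 wild-type sample names the Wassilewskija accession, and the accession of the overexpressor is not stated in the labels. All plants were untreated and grew at 20 °C and 70% hygrometry on MS/2, a plant culture medium, and none of the groups was exposed to cold according to the labels. The labels give no age, do not describe the mutant allele or the overexpression construct beyond these names, and do not say whether the 2 samples of a group were separate cultures. All p-values rest on the spread between such samples, and that spread may be technical.

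Dehydrins are very hydrophilic proteins, part of the late embryogenesis abundant class, that plants accumulate when water is lost through drought, salt or freezing, and they bind to membranes and to other proteins. COR47 and LTI30 are dehydrins. COR15B is a small protein of the chloroplast stroma, close in sequence to COR15A, that protects chloroplast membranes when cells freeze. In Arabidopsis the CBF transcription factors switch on many COR genes in the cold, and the hormone abscisic acid, drought and the circadian clock also act on them. OCTOPUS is a plasma membrane protein of the phloem lineage, the tissue that carries sugars.

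Levels are log2 GCRMA expression values, on which 1 unit is a doubling. They describe whole plants, in which fewer cells of a type and less RNA per cell cannot be told apart. OPS, the OCTOPUS transcript, stood at 2.53 and 2.47 in the mutant, 9.52 and 9.83 in the overexpressor, against 2.66 and 2.47 in wild type. The overexpressor arrays thus match their label, while the mutant label cannot be checked by this probe set, since wild type lay as low as the mutant. Array medians lay between 4.40 and 4.49 and the 25th percentiles between 2.54 and 2.70, and the 2 arrays of a group correlated at 0.984 to 0.989. Green tissue and roots were both represented. RCA, which encodes Rubisco activase, stood between 13.7 and 13.9 on the 6 arrays and the root gene PYK10 between 11.9 and 12.5. None of the 6 seed and embryo markers, taken because seeds also accumulate dehydrins, had a probe set naming 1 gene in the annotation used here. That annotation leaves out 8794 probe sets of the array, so a gene given below as having no probe set of its own was not analysed and may still be on the array.

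COR47 was lowest in the mutant and highest in wild type, with the overexpressor between them. Its level was 9.85 and 10.24 in the mutant, 10.92 and 10.72 in the overexpressor, against 11.37 and 11.23 in wild type. No array of a group overlapped with an array of another group. Against wild type, COR47 fell by 1.25 log2 units in the mutant, which is 2.39-fold (SE 0.147, 95% interval -1.60 to -0.91, limma adjusted p = 0.00441, n = 2 per group). In the overexpressor the difference from wild type was -0.48 (SE 0.147, adjusted p = 0.138) and did not pass. Against the mutant, COR47 rose by 0.77 log2 units in the overexpressor, or 1.71-fold (95% interval 0.43 to 1.12, adjusted p = 0.0152). The fall in the mutant passed without each of the 6 arrays in turn (highest adjusted p = 0.0463). The call between the 2 lines was lost without mutant array 1 (difference 0.58, adjusted p = 0.0848) and without overexpressor array 1 (0.68, adjusted p = 0.0573).

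LTI30 followed the same order of groups. It stood at 6.84 and 6.96 in the mutant, 7.75 and 7.36 in the overexpressor, against 7.92 and 8.15 in wild type, again without overlap between any 2 groups. The 2 overexpressor arrays lay 0.39 apart, and the higher of them came close to the lower wild-type array. Against wild type, LTI30 fell by 1.13 log2 units in the mutant, or 2.20-fold (SE 0.165, 95% interval -1.52 to -0.75, adjusted p = 0.00805). The difference between overexpressor and wild type, -0.48 (SE 0.165), did not pass (adjusted p = 0.172). It was -0.675 without overexpressor array 1 (adjusted p = 0.0811) and -0.285 without overexpressor array 2 (adjusted p = 0.47), and passed in neither. Against the mutant, LTI30 rose by 0.65 log2 units in the overexpressor, or 1.57-fold (95% interval 0.27 to 1.04, adjusted p = 0.0359).

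With single arrays left out, the LTI30 calls were lost more often than those of COR47. The fall in the mutant no longer passed without mutant array 1 (difference -1.08, adjusted p = 0.082) or mutant array 2 (-1.20, adjusted p = 0.0626). The rise in the overexpressor against the mutant was lost without mutant array 1 (0.60, adjusted p = 0.175), mutant array 2 (0.72, adjusted p = 0.136), overexpressor array 1 (0.46, adjusted p = 0.106), wild-type array 1 (adjusted p = 0.0512) or wild-type array 2 (adjusted p = 0.0515). It was also lost without a filter on low values (adjusted p = 0.0746) and when just the 4 mutant and overexpressor arrays were fitted (adjusted p = 0.0523). Without either wild-type array, and in these last 2 fits, the difference stayed at 0.655. Only the estimated spread and the adjustment changed there.

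COR15B was lower on all 4 arrays of the 2 lines than on either wild-type array, but none of its differences passed the test. It stood at 3.68 and 4.51 in the mutant, 3.89 and 4.19 in the overexpressor, against 5.77 and 4.94 in wild type. Both lines lay below wild type without overlap, while the mutant and overexpressor arrays overlapped each other. Such separation from wild type was common, at 32.0% of all tested probe sets for the mutant and 28.5% for the overexpressor. The share with both lines below wild type was not counted. In the mutant the difference from wild type was -1.26 log2 units, or 2.39-fold (SE 0.355, 95% interval -2.10 to -0.42, adjusted p = 0.0595). In the overexpressor it was -1.31, or 2.49-fold (SE 0.355, 95% interval -2.15 to -0.48, adjusted p = 0.109). The 2 lines differed by -0.05 with a 95% interval from -0.89 to 0.78 (adjusted p = 0.934), an interval too wide to show that they are alike.

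The estimate for COR15B was less precise than those of the dehydrins. Its mutant arrays lay 0.83 apart and its wild-type arrays 0.83 apart, and 2.14% of the tested probe sets had a larger standard error, against 61.4% for COR47 and 44.7% for LTI30. Wild-type array 1 carried the highest COR15B value. Without that array the mutant differed by -0.84 and the overexpressor by -0.90, and without wild-type array 2 the differences were -1.67 and -1.73. Wild-type array 1 also gave the highest value of COR15A, the tandem neighbour of COR15B and its closest homologue. COR15A stood at 3.15 and 3.14 in the mutant, 3.13 and 3.14 in the overexpressor, against 3.84 and 3.14 in wild type. Its mean was under the filter of 4, so it was not tested. All 5 other arrays gave COR15A values between 3.13 and 3.15.

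**Figure D1:**
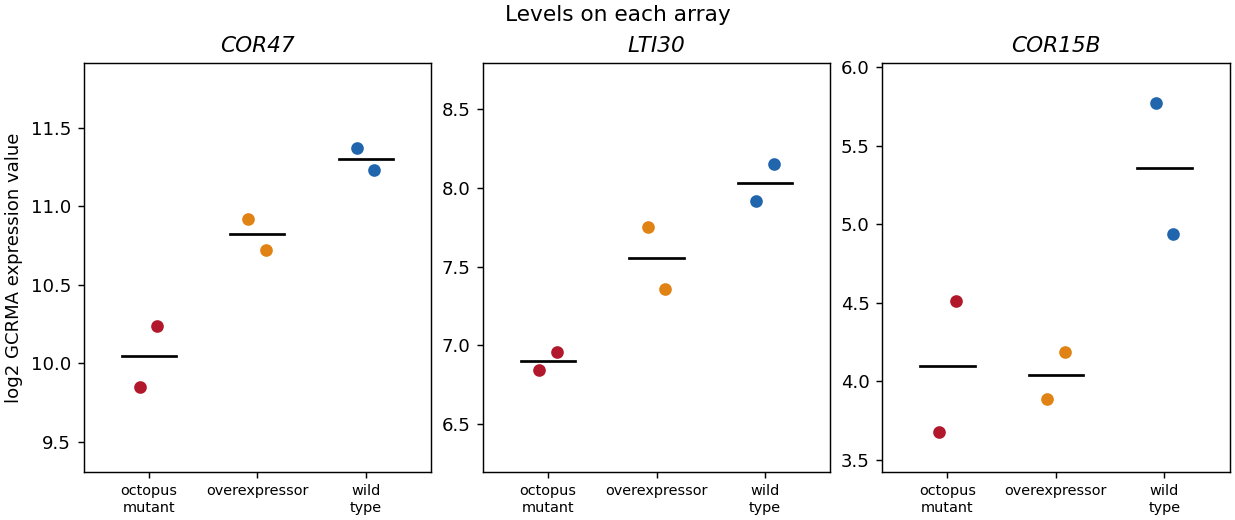
Level of each gene (log2 GCRMA expression value, vertical axis) on each of the 6 arrays (points), with the mean of the 2 arrays of a group (bar). Each panel has its own range of the same height. The order mutant, overexpressor, wild type is free of overlap for COR47 and LTI30, whereas the 2 lines overlap for COR15B, whose wild-type arrays stand at 5.77 and 4.94.

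The changes were then set against all 12363 tested probe sets. Since the 3 genes were chosen with earlier results of these data known, these contrasts describe the genes and do not test them as a set. A probe set was tested where its mean over the 6 arrays was at least 4, and passing means a p below 0.05 after Benjamini-Hochberg adjustment over all of them. All 3 genes passed the filter, COR15B with a mean of 4.50 and group means of 4.09 in the mutant, 4.04 in the overexpressor, against 5.36 in wild type. In the mutant against wild type 2 of the 3 genes passed, both lower, where 14.0% of all tested probe sets passed and 7.20% passed with a lower level in the mutant. In the overexpressor against wild type 0 of 3 passed with limma, where 2.53% of all passed and 1.04% passed as lower. At an unadjusted p below 0.05 it was 3 of 3, against 20.7% of all. The unadjusted count was also 3 of 3 in the mutant against wild type (30.8% of all) and 2 of 3 between the lines (34.4% of all). Between the overexpressor and the mutant 2 of 3 passed, both higher in the overexpressor, where 18.4% of all passed and 8.80% passed as higher. These shares themselves changed when an array was left out, which leaves a group with a single array and less replication to estimate the spread. The falls are given here, and in some such fits the count rose. The 1736 probe sets called in the mutant were 167 without mutant array 1, 278 without mutant array 2, 683 without wild-type array 1 and 810 without wild-type array 2. The 313 called in the overexpressor were 57 without wild-type array 1, 109 without wild-type array 2, 83 without overexpressor array 2, 80 without mutant array 1 and 75 without mutant array 2. The 2269 called between the lines were 503 without mutant array 1, 363 without mutant array 2 and 1095 without overexpressor array 2.

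The median change of the 3 genes was -1.25 in the mutant against wild type, against -0.01 over all tested probe sets. In the overexpressor against wild type it was -0.48, against -0.04 over all. For the overexpressor against the mutant it was 0.65, against -0.03. In the mutant 1.52% of tested probe sets had a lower difference than COR47, 1.93% a lower one than LTI30 and 1.49% a lower one than COR15B. In the overexpressor COR15B stood further out than the dehydrins: 0.251% of tested probe sets had a lower difference from wild type, against 9.23% for COR47 and 9.12% for LTI30. Both comparisons with wild type share the same wild-type arrays.

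Separation of the arrays was common across the table. All 3 genes had both mutant arrays below both wild-type arrays, as did 32.0% of all tested probe sets. All 3 had both overexpressor arrays below both wild-type arrays, as did 28.5%. The full order of mutant below overexpressor below wild type without overlap, seen for COR47 and LTI30, was found for 4.52% of all.

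**Figure D2:**
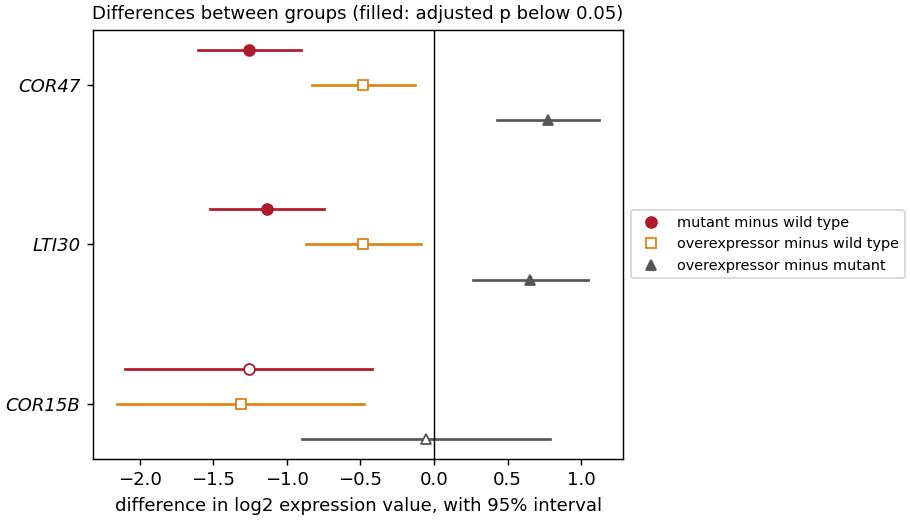
Difference in log2 expression value (horizontal axis) for each gene in the 3 comparisons, with its 95% interval from the fit of all 6 arrays. Filled symbols passed at an adjusted p below 0.05. COR47 and LTI30 are filled for the mutant minus wild type and for the overexpressor minus mutant, and COR15B has the widest intervals and no filled symbol.

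**Figure D3:**
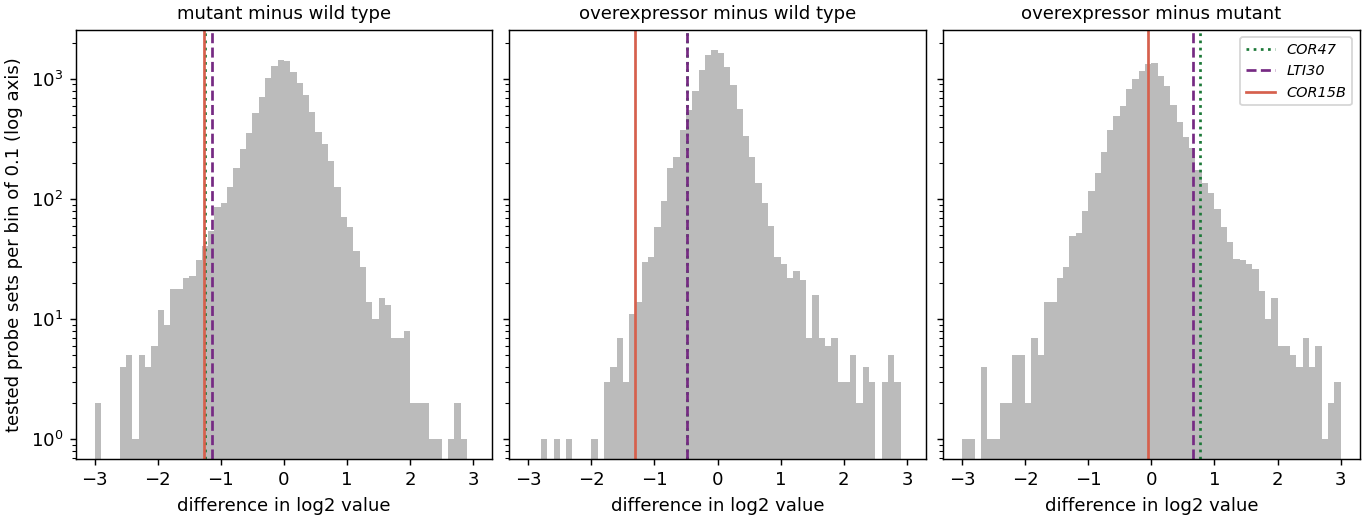
Number of tested probe sets (vertical axis, logarithmic) by difference in log2 value (horizontal axis, bins of 0.1 between -3 and 3, values beyond not drawn) in each comparison, with the 3 genes as vertical lines. The lines of all 3 genes lie in the lower tail for the mutant minus wild type (-1.25, -1.13 and -1.26). For the overexpressor minus wild type the lines of COR47 and LTI30 coincide at -0.48, while COR15B lies further out at -1.31.

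In the wider dehydrin family, the third member that could be tested moved with COR47 and LTI30. HIRD11 (AT1G54410), a small dehydrin, stood at 11.45 and 11.38 in the mutant, 12.21 and 11.88 in the overexpressor, against 12.18 and 12.20 in wild type. The mutant lay apart from both other groups, and the overexpressor arrays enclosed those of wild type. Mutant arrays lay below wild type without overlap for 32.0% of all tested probe sets, and the share below both groups was not counted. Against wild type, HIRD11 fell by 0.78 log2 units in the mutant, or 1.71-fold (SE 0.117, adjusted p = 0.00889), and differed by -0.14 in the overexpressor (adjusted p = 0.517). Against the mutant it rose by 0.63 in the overexpressor (adjusted p = 0.0143). Without mutant array 1 or mutant array 2 neither call held (adjusted p = 0.079 and 0.0782 against wild type, 0.0817 and 0.109 between the lines).

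Of the 10 genes of the dehydrin list, 6 had a probe set naming that gene alone and 3 were tested. All 3 tested dehydrins, COR47 and LTI30 included, fell in the mutant, none passed in the overexpressor against wild type, and all 3 rose in the overexpressor against the mutant. Over all tested probe sets 7.20% were called lower in the mutant, 1.04% lower in the overexpressor than in wild type and 8.80% higher in the overexpressor than in the mutant, and 2 of the 3 dehydrins are the ones already counted. The 3 others lay close to the floor. The dehydrin gene LEA (AT2G21490) stood between 2.34 and 2.41 on the 6 arrays and AT4G39130 between 2.14 and 2.20. AT4G38410 stood at 2.50 and 3.54 in the mutant, with the other 4 arrays between 2.39 and 2.51. ERD10, the neighbour of COR47, and XERO1, the neighbour of LTI30, had no probe set naming 1 gene and are not analysed here.

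Among the other cold genes on the lists, 2 fell in the mutant by more than the dehydrins did and did not pass in the overexpressor against wild type. COR27, which is induced by cold and represses clock genes, stood at 2.88 and 2.78 in the mutant, 6.75 and 6.85 in the overexpressor, against 6.96 and 6.62 in wild type. It fell by 3.96 log2 units in the mutant (SE 0.165, adjusted p = 0.000357) to near the floor. The mutant values are close to the arrays' 25th percentiles, so that the size of this difference is limited by the floor of the measurement. AT4G33980, put in the same list, stood at 4.73 and 3.95 in the mutant, 6.92 and 6.93 in the overexpressor, against 7.05 and 7.50 in wild type, and fell by 2.93 (SE 0.271, adjusted p = 0.00239). The overexpressor arrays of COR27 overlapped with wild type, while those of AT4G33980 lay below both wild-type arrays, as did 28.5% of all tested probe sets. GI, a clock gene that also takes part in cold tolerance, had differences of -0.29 in the mutant (adjusted p = 0.286) and 0.13 in the overexpressor (adjusted p = 0.684).

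Of the 18 genes of the CBF regulon list 1 could be tested. ZAT10 (STZ), a zinc finger repressor induced by cold and other stresses, stood at 3.19 and 5.81 in the mutant, 5.61 and 5.14 in the overexpressor, against 6.41 and 3.68 in wild type. Its mutant replicates and its wild-type replicates lay further apart than any 2 group means, and it did not pass in any comparison. KIN1 and KIN2 share 1 probe set with each other and are given no value. Of the 13 upstream regulators 1 could be tested: SIZ1, a SUMO ligase that acts on the CBF activator ICE1, had a difference from wild type of -0.06 in the mutant (adjusted p = 0.816) and 0.15 in the overexpressor (adjusted p = 0.574). A second SIZ1 probe set lay under the filter and did not match the first, at 3.71 and 3.76 in the mutant, 3.80 and 3.29 in the overexpressor, against 4.55 and 4.82 in wild type. The CBF genes themselves had no probe set naming 1 gene.

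In the abscisic acid list 2 of 18 genes had a probe set of their own and both lay under the filter. LEA4-5, a late embryogenesis abundant protein gene induced by abscisic acid and drought, stood between 2.32 and 2.58 on the 6 arrays. AT3G02480 stood between 2.70 and 2.95. The lists, too, were chosen with earlier results of these data known. Over all 6 lists and leaving out COR47, LTI30 and COR15B, 12 of 68 genes had a probe set of their own and 6 were tested. Of these 6, 3 were lower in the mutant than in wild type and none higher (HIRD11, COR27 and AT4G33980), with a median of -0.66 against -0.01 over all tested probe sets, of which 7.20% were called lower. In the overexpressor against wild type limma passed 0 of 6, where 2.53% of all tested probe sets passed. At an unadjusted p below 0.05 it was also 0 of 6, against 20.7% of all. The median was 0.07 against -0.04 over all. Between the overexpressor and the mutant the same 3 genes were higher and none lower, with a median of 0.75 against -0.03 over all, where 8.80% were called higher. COR27 passed the filter of 4 only through its overexpressor and wild-type arrays (means 6.80 and 6.79, against 2.83 in the mutant). A gene that low in the mutant could be tested only if it was higher elsewhere, so its part in these counts and medians carries no weight.

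**Figure D4:**
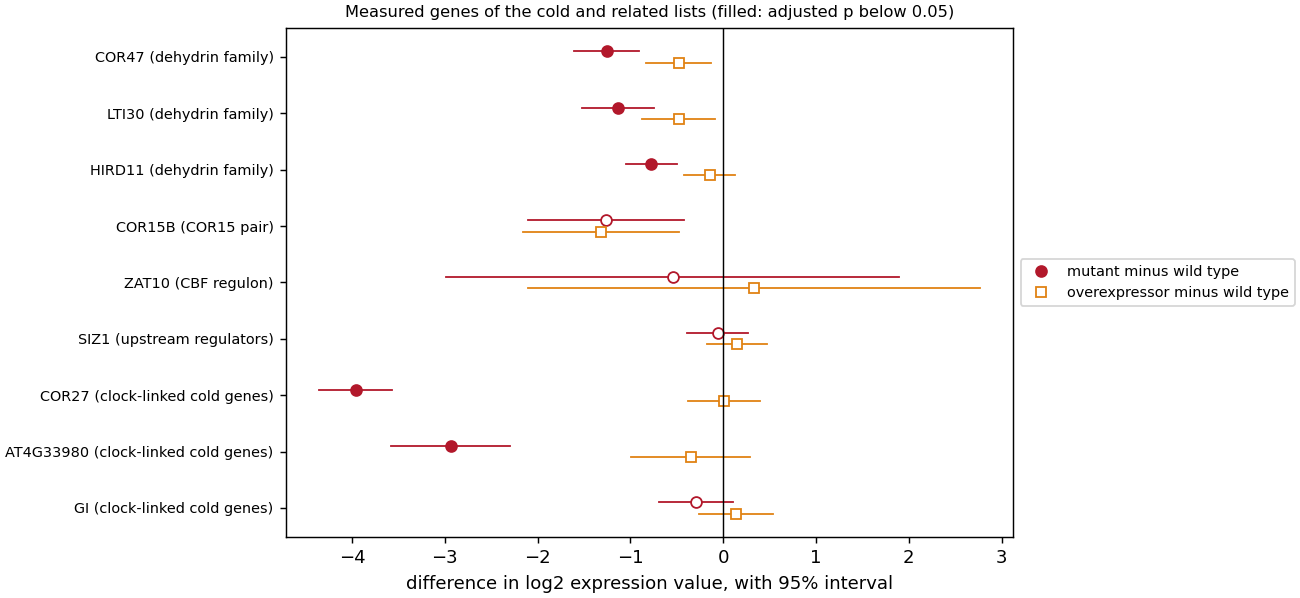
Difference from wild type in log2 expression value (horizontal axis, with 95% intervals) for each tested gene of the cold and related lists, in the mutant (circles) and the overexpressor (squares). Filled symbols passed at an adjusted p below 0.05. The 3 dehydrins, COR27 and AT4G33980 are filled in the mutant, no gene is filled in the overexpressor, and ZAT10 has the widest intervals.

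The 3 genes did not all share one profile over the 6 arrays. COR47 and LTI30 correlated at 0.959 (Pearson, n = 6 arrays in 3 groups), COR47 and COR15B at 0.729 and LTI30 and COR15B at 0.612. These values describe arrays that share their groups and carry no test. Each gene was set against the 1267 other tested probe sets that name 1 gene and span at least 1 log2 unit. A correlation above 0.95 was found with 48 of them for COR47, 45 for LTI30 and 6 for COR15B.

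The 5 genes most like COR47 were AT2G48130, AT4G30650, WLIM1, AT4G33490 and AT3G22620, at correlations from 0.991 to 0.996. AT4G30650, for example, stood at 7.64 and 8.01 in the mutant, 9.05 and 8.81 in the overexpressor, against 9.64 and 9.29 in wild type. The 5 most like LTI30 were AT3G27210, AT5G64100, AT1G19900, AT5G17820 and AT3G45710, at 0.988 to 0.997. AT5G64100 stood at 9.54 and 9.73 in the mutant, 10.42 and 10.04 in the overexpressor, against 10.72 and 10.88 in wild type. The 5 most like COR15B were AT5G56980, AT5G65840, AT2G40980, AT1G78560 and AT2G25250, at 0.956 to 0.986. AT5G65840 stood at 6.09 and 6.67 in the mutant, 6.29 and 6.27 in the overexpressor, against 7.30 and 6.98 in wild type. No gene was on more than 1 of these short lists.

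**Figure D5:**
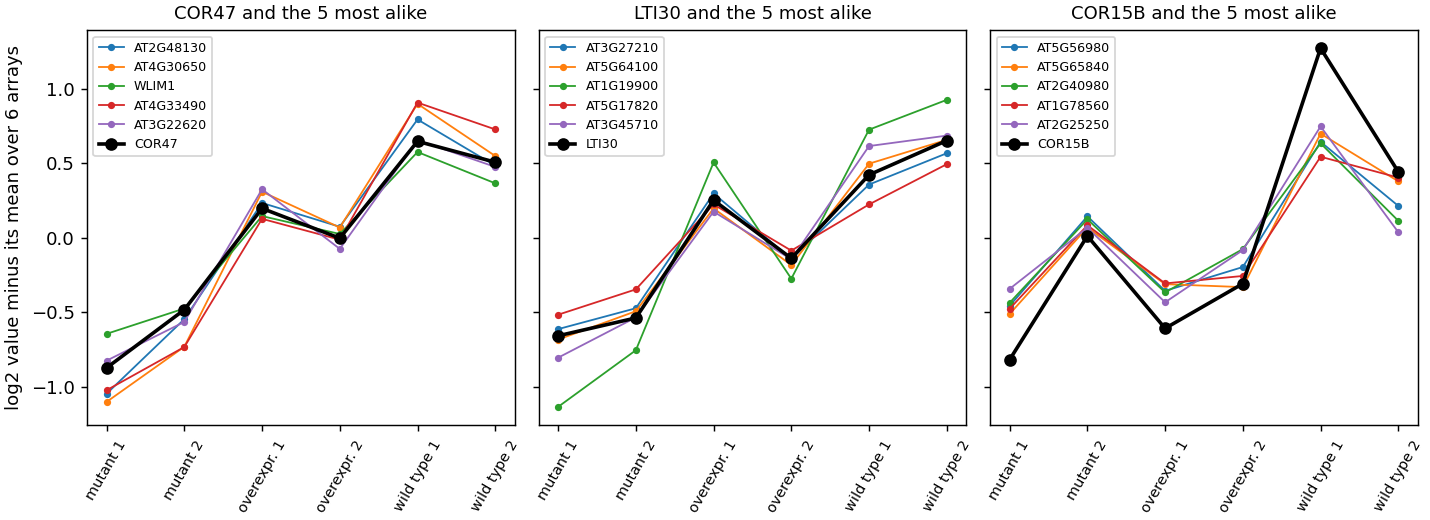
Log2 value minus its mean over the 6 arrays (vertical axis) for each gene (thick black line) and the 5 genes with the highest Pearson correlation to it (thin lines), on each array (horizontal axis). The lines join separate samples and are not a course in time. The profiles of COR47 and LTI30 step up from the mutant through the overexpressor to wild type, and that of COR15B peaks on wild-type array 1.

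Other measures are given here, of which some differed between groups and some between the arrays of a group. Their part in the results was not tested. Of the 3 phloem markers only SWEET11, a sucrose exporter, had a probe set of its own in the annotation used here, at 9.67 and 9.95 in the mutant, 10.22 and 10.38 in the overexpressor, against 10.54 and 10.64 in wild type. SWEET11 fell in the mutant (difference -0.78, adjusted p = 0.0102) and thus had the same order of groups as COR47 and LTI30, but its call was lost without mutant array 1 (adjusted p = 0.0851) or wild-type array 2 (adjusted p = 0.0534). Of the 5 green tissue markers 3 were tested and 1, LHCB4.2 of the light-harvesting antenna, rose in the mutant (1.31, adjusted p = 0.0254). That call was lost without mutant array 1 (adjusted p = 0.151) or mutant array 2 (adjusted p = 0.133), and the difference was 0.83 without wild-type array 1 and 1.79 without wild-type array 2. Of the 4 root markers 3 were tested and none passed against wild type. Over all tested probe sets, 14.0% passed in the mutant against wild type and 2.53% in the overexpressor against wild type. Between the overexpressor and the mutant 18.4% of all tested probe sets passed. Of the markers, 3 did: SWEET11 at 0.49 (adjusted p = 0.0358), LHCB4.2 at -1.21 (adjusted p = 0.0281) and the root marker PYK10 at -0.375 (adjusted p = 0.0395). The call of SWEET11 was lost without any 1 of the 6 arrays (highest adjusted p = 0.186), that of LHCB4.2 without any 1 of the 4 mutant and overexpressor arrays (highest adjusted p = 0.145) and that of PYK10 without mutant array 1, mutant array 2 or overexpressor array 2 (highest adjusted p = 0.221). The control for 25S ribosomal RNA read 8.03 and 11.2 in the mutant, 6.28 and 6.61 in the overexpressor, against 6.42 and 5.86 in wild type. The GAPDH control read higher at its 3′ end than at its 5′ end, by 1.80 and 1.39 in the mutant, 1.92 and 1.72 in the overexpressor, against 1.42 and 1.12 in wild type. Wild-type array 1, which carried the highest COR15B value, had the highest BioB hybridisation control (7.07, against 5.79 to 6.36 on the other 5 arrays). It also had the lowest DapX control (8.38), while wild-type array 2 had the highest DapX control (10.7). The LysX and PheX controls split these arrays in the same way, at 5.51 and 4.90 on wild-type array 1 against 8.04 and 7.41 on wild-type array 2. CreX went the other way, at 13.4 against 12.4.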

How the data were processed

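Per the labels' protocols, total RNA from whole plants was amplified and biotin-labelled for the ATH1 arrays. The deposited values are log2 expression values that the submitters' processing notes credit to GCRMA, without a version. That their scale is log2 follows from their range. Whether all arrays were normalised in one run is not stated, no detection calls were used, and precision is limited by the number of arrays. Of the 22810 probe sets, 13513 have a single gene in the platform annotation, 503 have several and 8794 are absent from it. Gene numbers linked 13436 of the 13513 to TAIR10.1 symbols.

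The test was limma 3.58.1 in R 4.3.3 (lmFit and eBayes, two-sided, with the prior variance following the mean) on all 6 arrays without covariates. It had 3 residual degrees of freedom plus 3.98 from the prior. The 64 control probe sets were left out. Differences carry standard errors of that fit, and 95% intervals are not adjusted for the number of tests. The code was tested on simulated data. The 3 genes, the gene lists and the naming rule (the 3 genes, list genes with a probe set of their own, and the 5 genes most correlated with each of the 3) were chosen with earlier results of these data known. Alternatives were no filter, a mean of at least 6, added quantile normalization, no variance trend, the 4 arrays compared, the replicate number as a block, each array left out and, added after the data were seen, a block with the mutant numbers exchanged.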

Additional observations from a re-analysis of the deposited data

How the results depend on the processing

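The fall of COR47 in the mutant passed under each of its 13 alternatives, with differences from -1.45 to -1.06. Over COR47, LTI30 and COR15B, 97 of 114 refits kept direction and side of the threshold. That count is no measure of robustness. Refits that changed the filter, the variance estimate or the block kept the difference by construction. So did those that left out arrays of the group not compared. Comparisons that never passed also count as kept. With single arrays left out the difference of LTI30 lay between -1.25 and -1.02 in the mutant, that of COR47 between the lines at 0.58 to 0.97, that of LTI30 between the lines at 0.46 to 0.85 and that of COR15B between the lines at -0.47 to 0.36. LTI30 in the overexpressor against the mutant, at 0.65, had adjusted p of 0.0746 without a filter, 0.0523 in the 4 arrays compared and 0.0693 with the replicate block. COR15B was under the filter of a mean of at least 6 and has no value there.

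The replicate numbers did not pair the samples. Deviations of same-numbered arrays correlated at -0.305 between mutant and overexpressor, -0.240 between mutant and wild type and 0.156 between overexpressor and wild type. The replicate block gave 118 called probe sets in the overexpressor against wild type. With the mutant numbers exchanged, a block chosen after seeing the data, that count was 771. Under that block COR15B passed in the mutant (-1.26, adjusted p = 0.0229) and the overexpressor (-1.31, adjusted p = 0.0402), as did COR47 in the overexpressor (-0.48, adjusted p = 0.0359). Because the block was picked from the deviations of these same arrays, its p-values may be too low and are not counted as calls.

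The number of probe sets called, against which the 3 genes were read, was 1736 in the mutant against wild type and 1009 without a filter, and 167 to 1807 with an array left out. In the overexpressor against wild type it was 313, then 191 with a mean of at least 6, 75 in the 4 arrays compared and 57 to 373 with an array left out. Between the lines it was 2269, and 363 to 1931 with an array left out. Fits without 1 array leave a group with a single array, which is assumed to vary like the others. Among other list genes 9 of 228 refits turned direction, none of a called value and each with an array left out: ZAT10 in the mutant (-1.91 to 0.82), the overexpressor (-1.03 to 1.70) and between the lines (-0.43 to 2.19), and in the overexpressor GI (-0.055 to 0.33), HIRD11 (-0.31 to 0.02), SIZ1 (-0.005 to 0.31) and COR27 (-0.16 to 0.18). The cause of these changes was not tested.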

Other observations

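The nearest genes on the chromosome with a probe set of their own were looked up after the data were seen. AT1G20430, next to COR47, stood at 6.87 and 6.55 in the mutant, 6.50 and 6.14 in the overexpressor, against 6.43 and 6.11 in wild type, and did not pass in either line. AT2G42520, on the other side of COR15B from COR15A, stood at 5.53 and 5.68 in the mutant, 5.36 and 5.37 in the overexpressor, against 5.96 and 6.22 in wild type, and its differences from wild type were -0.49 in the mutant (adjusted p = 0.0799) and -0.73 in the overexpressor (adjusted p = 0.0625). In TAIR10.1 the annotated spans of AT2G42520 and COR15B overlap. The nearest such genes around LTI30, AT3G50940 and AT3G50990, stood between 2.30 and 2.59 on all 6 arrays.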
